A study of Mus musculus with 8 samples.

Results

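The genes described here are the cell cycle regulators that the array's annotation names as a cyclin (Ccn with 1 letter and at most 1 digit), a cyclin-dependent kinase (Cdk with a number, or Cdc2a, the older name of Cdk1), a Cdk inhibitor (Cdkn) or an E2f transcription factor. They are 48 gene names with 94 probes among 27962 gene names on the array. Of these, 47 were measured, among 17593 measured genes of all kinds: the only probe for E2f4 was not well above background on any of the 8 arrays and has no value. The 47 comprise 22 cyclins, 10 kinases, 8 inhibitors and 7 E2f factors.

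RNA was taken from testes of male mice of a mixed C57BL/6 and 129SV background at postnatal day 14, in which juvenile germ cells express Dazl, a germ cell RNA-binding protein, fused to the tags GFP and V5. All 4 groups come from this material and each has 2 arrays: total RNA that was not precipitated (input), a mock in which normal mouse IgG was used (IgG), and precipitates made with antibodies against V5 (V5) or GFP (GFP). The lysates were not crosslinked. The promoter that drives the fusion and whether replicates are separate animals are not given in the sources used here, so p-values cover only how far these samples vary, and that variation may be technical.

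Some labels conflict: the description of input replicate 2 calls it RNA-IP and that of V5 replicate 1 calls it total RNA, against their titles, sources and antibodies, which were followed here, and the series text names anti-PABP1 where the samples name anti-GFP. Slide 1 held the arrays of input and IgG and slide 2 those of V5 and GFP, per the file headers, so slide and group cannot be told apart in any comparison of V5 or GFP with IgG or input. Values below are relative signals, the processed signal of a probe divided by the 75th percentile of its array, and differences are log2 fold changes ± SE of the limma fit over all 8 arrays, called at an adjusted p of at most 0.05. The 75th percentile lay between 857 and 1115, between 57.2% and 62.2% of spots were well above background, 0 spots were saturated, and replicates correlated at 0.9944 to 0.9973 across genes. The median difference between replicates over the 47 genes was 0.057 on the log2 scale in the input, 0.14 in IgG, 0.097 in V5 and 0.071 in GFP. Where a gene has more than 1 probe the brightest stands for it, and since probes differ in their response, no level is compared between genes.

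Cyclins are the regulatory subunits that switch on Cdk kinases. D-type cyclins with Cdk4 and Cdk6, then E-type cyclins with Cdk2, phosphorylate the retinoblastoma family of pocket proteins and so free the E2f factors that transcribe S-phase genes; A- and B-type cyclins with Cdk2 and Cdc2a carry cells through S phase and into division. Ink4 proteins (Cdkn2a to Cdkn2d) hold back Cdk4 and Cdk6, and Cip/Kip proteins (Cdkn1a to Cdkn1c) act on a wider set of Cdks. In the juvenile testis, spermatogonia divide by mitosis while the leading germ cells pass through meiotic prophase, and Dazl is known to bind the untranslated ends of germ cell mRNAs.

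Against the IgG mock, 27 of the 47 genes were called in V5, 18 higher and 9 lower. The background is wide: of all measured genes 57.0% were called in that comparison, 16.7% higher and 40.3% lower. In GFP against IgG 33 of the 47 were called, 22 higher and 11 lower, beside 73.7% of all genes, 21.6% higher and 52.1% lower. The share of genes called is close to the background in both. The median difference of the 47 genes was 0.12 in V5 and 0.17 in GFP, beside -0.21 and -0.33 over all genes. The GFP and V5 comparisons share the IgG arrays, so their values are given side by side and neither supports the other. E2f genes had 6 of 7 measured factors higher and 0 lower in each comparison (medians 0.54 in V5 and 0.82 in GFP). D-type cyclins had 2 of 3 higher and 1 lower in each, with medians of 0.39 and 0.81. Kinases were divided, with 4 of 10 higher and 4 lower in each (medians 0.025 and -0.12). Cip/Kip inhibitors had 0 of 3 higher, with 2 lower in V5 and 1 in GFP, and Ink4 inhibitors had 1 of 4 higher in V5 and 2 higher and 1 lower in GFP.

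The split into higher and lower calls depends on how arrays are scaled. Scaled on 7 spike-in probes in place of the 75th percentile, the median of all genes moved from -0.21 to 0.16 in V5 against IgG and from -0.33 to 0.15 in GFP against IgG, and 29 of the 47 genes were called higher and 0 lower in V5, and 35 higher and 1 lower in GFP. Of all genes 40.8% in V5 and 51.5% in GFP were then called, 87.2% and 75.6% of these calls higher. Scaled on the median of each array, the split was 26 higher and 0 lower in V5 and 27 higher and 2 lower in GFP. That scaling called 36.5% and 58.6% of all genes, with 75.5% and 52.6% of the calls higher. Quantile scaling gave 21 higher and 6 lower in V5 and 24 higher and 10 lower in GFP, with medians of all genes at -0.11 and -0.21. It called 51.2% and 68.7% of all genes, with 39.5% and 36.1% of the calls higher. Each of these 3 scalings moved the median of all genes up, so that the higher calls against IgG were not put to a scaling that lowers them. The lower call of Cdk5 in GFP was kept under spike-in and median scaling and that of Cdk3 in GFP under median scaling, and the other lower calls were lost under both. Genes given below as lower than IgG have their spike-in value beside them.

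**Figure D1:**
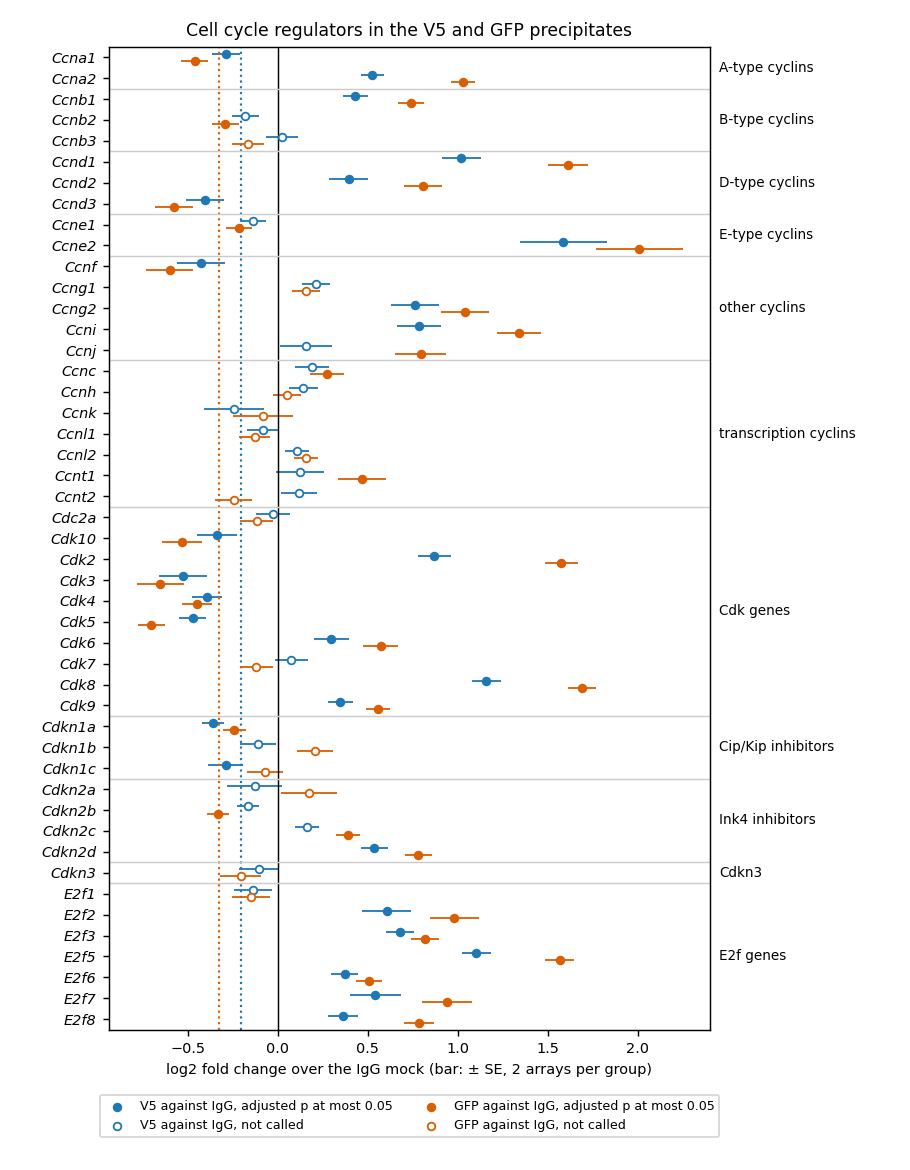
Differences of the 47 measured genes from the IgG mock, as log2 fold change (points) with the SE of the limma fit (bars), 2 arrays a group, V5 in blue and GFP in orange; filled points passed an adjusted p of 0.05 and open points did not. Dotted lines mark the medians of all 17593 genes, -0.21 for V5 and -0.33 for GFP; 6 of the 7 E2f genes lie to the right of 0 in both colours, while the Cdk genes lie on both sides.

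Among the D-type cyclins, which respond to growth signals and partner Cdk4 and Cdk6, Ccnd1 and Ccnd2 were higher in both precipitates than in the mock and Ccnd3 lower. The relative signal of Ccnd1 was 1.09 and 1.12 in the input, 2.095 and 2.61 in IgG, 4.88 and 4.61 in V5, and 7.201 and 7.11 in GFP. The groups do not overlap, and they step up from input through IgG and V5 to GFP. Ccnd1 was 2.03-fold higher in V5 than in IgG (1.02 ± 0.11, adjusted p = 0.00165) and 3.06-fold higher in GFP (1.61 ± 0.11, adjusted p = 0.000135). Its probe is printed in 10 copies, whose coefficient of variation was 3.44% to 7.02% within an array. Ccnd2 gave 9.68 and 9.77 in the input, 7.94 and 9.69 in IgG, 11.9 and 11.2 in V5, and 15.97 and 14.7 in GFP. Its IgG arrays reach the level of the input while all 4 precipitate arrays lie above both, by 0.39 ± 0.11 in V5 and 0.81 ± 0.11 in GFP against IgG (adjusted p = 0.0211 and 0.000832). The 3 Ccnd2 probes ranged from 0.75 to 0.91 in GFP against IgG. The V5 call of Ccnd2 was lost without V5 replicate 1 (0.35) or V5 replicate 2 (0.44). Ccnd3 ran the other way, with 2.22 and 2.07 in the input, 3.98 and 4.55 in IgG, 3.17 and 3.28 in V5, and 2.64 and 3.097 in GFP: the IgG arrays were highest and the input arrays lowest. It differed from IgG by -0.40 ± 0.11 in V5 and -0.58 ± 0.11 in GFP (adjusted p = 0.0196 and 0.00304), and under spike-in scaling by -0.038 and -0.10, with neither called. The V5 call of Ccnd3 was also lost without IgG replicate 2 (-0.31), V5 replicate 1 (-0.38) or V5 replicate 2 (-0.43).

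The 2 E-type cyclins, which activate Cdk2 at the entry to S phase, gave unlike values. Ccne2 had relative signals of 1.27 and 1.29 in the input, 0.303 and 0.176 in IgG, 0.741 and 0.6503 in V5, and 1.01 and 0.858 in GFP. It was highest in the input and lowest in the mock, with the precipitates between and no overlap of groups. Against IgG it was 3.002-fold higher in V5 (1.59 ± 0.24, adjusted p = 0.00396) and 4.02-fold higher in GFP (2.01 ± 0.24, adjusted p = 0.000595), the highest fold changes against IgG among the 47 genes, and also those with the widest SE. A further probe of Ccne2, annotated to another transcript, gave 1.62 in V5 and 1.999 in GFP. Ccne1 gave 4.07 and 4.35 in the input, 10.2 and 11.2 in IgG, 9.68 and 9.77 in V5, and 9.21 and 9.202 in GFP. All 6 precipitate arrays, the mock among them, lie above the input arrays, and the V5 and GFP arrays lie just below the IgG arrays. The difference from IgG was -0.14 ± 0.073 in V5, which missed the threshold (adjusted p = 0.149), and -0.22 ± 0.073 in GFP, which passed it (adjusted p = 0.0337) but became 0.26 with a call as higher under spike-in scaling. The GFP call of Ccne1 was lost when any array but IgG replicate 1 was left out, with values from -0.22 to -0.15. The dimmer probe of Ccne1 was called lower than IgG in both, at -0.44 in V5 and -0.70 in GFP. Spike-in scaling gave -0.076 and -0.23 for that probe, both uncalled.

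A-type cyclins act in S phase and at the entry into division. Ccna2, the form of dividing cells, gave 1.72 and 1.77 in the input, 1.05 and 1.04 in IgG, 1.55 and 1.46 in V5, and 2.16 and 2.104 in GFP. The mock was lowest, GFP exceeded the input and V5 lay just under it. Against IgG Ccna2 was 1.44-fold higher in V5 (0.53 ± 0.065, adjusted p = 0.00236) and 2.04-fold higher in GFP (1.03 ± 0.065, adjusted p = 0.000116). Ccna1, a germ cell form needed for male meiosis, was 0.168 and 0.179 in the input, 0.246 and 0.2497 in IgG, 0.2104 and 0.196 in V5, and 0.188 and 0.173 in GFP. Its highest arrays were those of IgG, and it differed from IgG by -0.29 ± 0.076 in V5 and -0.46 ± 0.076 in GFP (adjusted p = 0.019 and 0.00181), but by 0.077 and 0.011 under spike-in scaling, neither of them called. The V5 call of Ccna1 was lost without IgG replicate 2 (-0.28) or V5 replicate 2 (-0.24).

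B-type cyclins bind Cdc2a and drive entry into mitosis and meiotic division. Ccnb1 gave 3.73 and 3.79 in the input, 1.31 and 1.34 in IgG, 1.82 and 1.76 in V5, and 2.33 and 2.11 in GFP. As with Ccne2, the input was highest, the mock lowest and the precipitates between, without overlap. Ccnb1 was higher than IgG by 0.43 ± 0.071 in V5 and 0.74 ± 0.071 in GFP (adjusted p = 0.00493 and 0.000334), and its other probes gave 1.53 and 1.73 in GFP against IgG. Ccnb2 gave 18.3 and 19.2 in the input, 9.07 and 10.01 in IgG, 8.51 and 8.32 in V5, and 7.91 and 7.67 in GFP. It was highest in the input, and its difference from IgG was -0.18 ± 0.074 in V5 (adjusted p = 0.0778, not called) and -0.29 ± 0.074 in GFP (adjusted p = 0.0113, lost without GFP replicate 2 at -0.27, and 0.18 under spike-in scaling). Ccnb3, a cyclin of early meiosis, gave 0.832 and 0.813 in the input, 1.29 and 1.18 in IgG, 1.34 and 1.18 in V5, and 1.13 and 1.08 in GFP. The V5 arrays of Ccnb3 overlap those of IgG, and neither precipitate was called (0.022 ± 0.088 in V5 and -0.16 ± 0.088 in GFP), although spike-in scaling called it higher in both, at 0.39 and 0.31.

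Of the 5 other cyclins, Ccng2 and Ccni were called higher in V5 and Ccng2, Ccni and Ccnj in GFP. Ccni, an atypical cyclin, gave 13.5 and 12.8 in the input, 14.6 and 11.5 in IgG, 21.5 and 23.1 in V5, and 31.3 and 34.2 in GFP. IgG and input overlap and both precipitates lie above them, by 0.79 ± 0.12 in V5 and 1.34 ± 0.12 in GFP (adjusted p = 0.00434 and 0.000294). Of its 5 kept probes 4 were higher in GFP than in IgG, from 0.76 to 1.54. In V5 against IgG these 4 gave 0.30 to 0.85, with the probe at 0.32 uncalled. That probe (0.90) and the probe at 0.30 (0.27) were called higher in IgG than in the input. A probe annotated to a cDNA clone, not above background on all arrays, gave -0.73 in GFP against IgG. Ccng2, linked to cell cycle arrest, gave 1.86 and 1.57 in the input, 2.202 and 1.81 in IgG, 3.55 and 3.24 in V5, and 3.87 and 4.36 in GFP. Again IgG and input overlap, and the precipitates were higher than IgG by 0.76 ± 0.13 in V5 and 1.04 ± 0.13 in GFP (adjusted p = 0.00562 and 0.000737). Ccnj gave 0.0963 and 0.0853 in the input, 0.163 and 0.155 in IgG, 0.166 and 0.1896 in V5, and 0.314 and 0.241 in GFP, dim values for which only GFP was called against IgG (0.79 ± 0.14, adjusted p = 0.00266; 0.16 ± 0.14 in V5). Ccnf, the substrate-binding subunit of a ubiquitin ligase, differed from IgG by -0.43 ± 0.13 in V5 and -0.60 ± 0.13 in GFP, both called as lower. The V5 call of Ccnf was lost when any array but IgG replicate 1 was left out (values from -0.49 to -0.22), and spike-in scaling gave -0.062 and -0.13, uncalled. Ccng1, a target of p53, was called in neither (0.21 ± 0.077 and 0.15 ± 0.077). Its dimmer probe was called higher in both, at 0.29 and 0.42. Spike-in scaling called the brighter Ccng1 probe higher in both as well, at 0.57 and 0.63.

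Of the 7 cyclins that work in transcription 0 were called by limma in V5 against IgG, with 0 at an unadjusted p under 0.05, and 2 were called in GFP, both higher. Ccnt1, the partner of Cdk9 in releasing paused RNA polymerase, gave 0.307 and 0.302 in the input, 0.338 and 0.346 in IgG, 0.426 and 0.326 in V5, and 0.445 and 0.502 in GFP. Of the V5 arrays 1 lies above both IgG arrays and 1 below them, and only GFP was called (0.47 ± 0.13, adjusted p = 0.0172), a call lost without IgG replicate 1 (0.45), IgG replicate 2 (0.49) or GFP replicate 2 (0.38). Ccnc, the partner of Cdk8 in the Mediator complex, gave 0.463 and 0.459 in the input, 0.3203 and 0.278 in IgG, 0.331 and 0.3499 in V5, and 0.381 and 0.341 in GFP. Its input arrays were highest, and the difference from IgG was 0.19 ± 0.10 in V5 and 0.27 ± 0.10 in GFP (adjusted p = 0.128 and 0.0372). The GFP call of Ccnc was lost when any array but IgG replicate 1 or GFP replicate 2 was left out, with values from 0.17 to 0.27, whereas its dimmer probe gave 1.25 and 1.58 in the same comparisons, both called. Ccnt2 gave 1.11 and 1.096 in the input, 1.498 and 1.23 in IgG, 1.46 and 1.48 in V5, and 1.11 and 1.18 in GFP, called in neither (0.12 ± 0.10 and -0.24 ± 0.10). Its 2 dimmer probes were both called higher in V5, at 0.51 and 0.44, and in GFP, at 0.41 and 0.67. Ccnh, Ccnk, Ccnl1 and Ccnl2 were called in neither, with values from -0.24 to 0.16. Their other probes were not alike: the dimmer probe of Ccnk was called lower in both (-0.79 and -0.91, and -0.43 and -0.44 under spike-in scaling), while 1 of the 3 dimmer probes of Ccnh (0.67 in each) and 1 of the 2 of Ccnl2 (0.50 and 0.74) were called higher in both. Spike-in scaling called Ccnc (0.55 and 0.74), Ccnh (0.51 and 0.52), Ccnl2 (0.47 and 0.63) and Ccnt1 (0.49 and 0.94) higher in both. It also called Ccnt2 higher in V5 (0.48) and Ccnl1 in GFP (0.34), and left Ccnk uncalled in both (0.12 and 0.39).

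**Figure D2:**
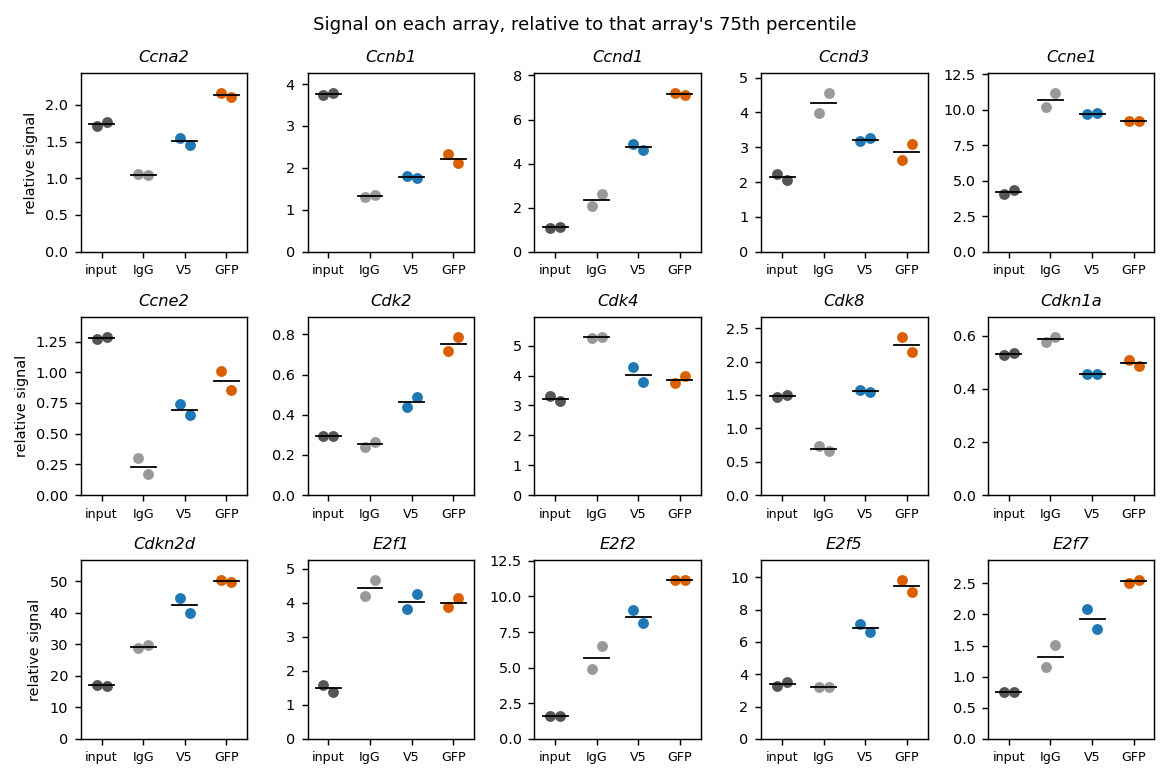
Relative signal (processed signal over the 75th percentile of the array) of 15 of the genes on each of the 8 arrays, by group, with the linear axis of each panel starting at 0; each dot is an array and the black line the mean of the group's log2 values. Ccnd1, Cdkn2d, E2f2 and E2f7 step up from input to GFP, Ccnb1 and Ccne2 are highest in the input and lowest in IgG, and Ccnd3, Ccne1 and Cdk4 are highest in IgG.

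Cdk2, the kinase of E- and A-type cyclins, gave 0.294 and 0.295 in the input, 0.24 and 0.266 in IgG, 0.437 and 0.488 in V5, and 0.719 and 0.788 in GFP. Input and IgG lie close together, V5 above them and GFP above V5, with no overlap between IgG and either precipitate. It was 1.83-fold higher than IgG in V5 (0.87 ± 0.092, adjusted p = 0.00156) and 2.98-fold higher in GFP (1.58 ± 0.092, adjusted p = 9.79e-05). The mitotic kinase Cdc2a, in contrast, gave 3.58 and 4.01 in the input, 4.25 and 3.81 in IgG, 4.08 and 3.82 in V5, and 3.62 and 3.801 in GFP. All 4 groups lie within the same narrow range, and Cdc2a was called in none of the 6 comparisons (-0.026 ± 0.092 in V5 and -0.12 ± 0.092 in GFP against IgG), though under spike-in scaling it was called higher than IgG at 0.34 and 0.35 and lower in IgG than in input at -0.70.

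The partners of D-type cyclins split. Cdk4 gave 3.31 and 3.14 in the input, 5.25 and 5.3 in IgG, 4.27 and 3.78 in V5, and 3.75 and 3.98 in GFP. IgG was highest, and Cdk4 differed from it by -0.39 ± 0.083 in V5 and -0.45 ± 0.083 in GFP (adjusted p = 0.00933 and 0.00289), against -0.028 and 0.023 under spike-in scaling, both uncalled. Cdk6 gave 0.987 and 0.957 in the input, 0.864 and 0.886 in IgG, 1.18 and 0.978 in V5, and 1.33 and 1.28 in GFP. IgG was lowest, and the precipitates were higher by 0.30 ± 0.10 in V5 and 0.57 ± 0.10 in GFP (adjusted p = 0.0402 and 0.00221). The V5 call of Cdk6 was lost when any array but V5 replicate 2 was left out, with values from 0.16 to 0.32. A dimmer Cdk6 probe, above background on all arrays, was lowest in the input (0.44 and 0.41). It gave 0.20, uncalled, in V5 and 0.41, called, in GFP against IgG. The third probe, above background on 4 arrays, gave 2.06 and 2.41, both called.

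Among the other kinases Cdk8, the Mediator kinase, had the smallest adjusted p against IgG, with relative signals of 1.47 and 1.504 in the input, 0.729 and 0.669 in IgG, 1.58 and 1.54 in V5, and 2.37 and 2.14 in GFP. The mock was lowest, V5 lay just above the input and GFP higher still. Cdk8 was 2.23-fold higher than IgG in V5 (1.16 ± 0.08, adjusted p = 0.000755) and 3.23-fold higher in GFP (1.69 ± 0.08, adjusted p = 7.93e-05); its dimmer probe gave 0.37 and 0.63. Cdk9, the partner of Ccnt1 and Ccnt2, gave 12.7 and 12.4 in the input, 22.7 and 21.1 in IgG, 27.3 and 28.4 in V5, and 32.4 and 31.9 in GFP. The groups step up in the order input, IgG, V5 and GFP, with differences from IgG of 0.35 ± 0.068 in V5 and 0.56 ± 0.068 in GFP (adjusted p = 0.00766 and 0.000641). Cdk5, best known from neurons, gave 7.42 and 8.14 in the input, 11.1 and 10.7 in IgG, 8.03 and 7.68 in V5, and 6.56 and 6.82 in GFP. IgG was highest, and Cdk5 differed from it by -0.47 ± 0.074 in V5 and -0.70 ± 0.074 in GFP (adjusted p = 0.00436 and 0.00042). Under spike-in scaling Cdk5 stayed called as lower in GFP (-0.23, adjusted p = 0.0407) and lost its call in V5 (-0.11). Cdk3 and Cdk10 were also called lower than IgG in both, Cdk3 at -0.53 and -0.65 and Cdk10 at -0.34 and -0.53, with uncalled spike-in values of -0.16 and -0.18 for Cdk3 and 0.028 and -0.062 for Cdk10. In V5 the call of Cdk3 was lost without IgG replicate 2 (-0.39) or V5 replicate 2 (-0.39), and that of Cdk10 when any array but IgG replicate 1 or V5 replicate 1 was left out (-0.34 to -0.21). Cdk7, which with Ccnh activates other Cdks, was called in neither (0.076 ± 0.09 and -0.12 ± 0.09). Spike-in scaling called Cdk7 higher in both, at 0.44 and 0.35.

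The Ink4 inhibitors were not alike. Cdkn2d, which with Cdkn2c is needed for male fertility in mice, gave 17.1 and 16.8 in the input, 28.7 and 29.7 in IgG, 44.7 and 40.1 in V5, and 50.4 and 49.8 in GFP. Its groups step up from input to GFP without overlap, and it was 1.45-fold higher than IgG in V5 (0.54 ± 0.075, adjusted p = 0.00317) and 1.72-fold higher in GFP (0.78 ± 0.075, adjusted p = 0.000327). Cdkn2c gave 3.86 and 3.998 in the input, 8.35 and 8.54 in IgG, 9.77 and 9.13 in V5, and 11.1 and 11 in GFP. The same order held over its groups, but the difference from IgG passed the threshold in GFP alone (0.16 ± 0.066 in V5, adjusted p = 0.0762; 0.39 ± 0.066 in GFP, adjusted p = 0.00208), and its other probe gave 0.24 and 0.47. Cdkn2b gave 2.42 and 2.47 in the input, 2.84 and 2.86 in IgG, 2.58 and 2.51 in V5, and 2.31 and 2.22 in GFP. IgG was highest, GFP was called lower than IgG (-0.33 ± 0.061, adjusted p = 0.00302; 0.14 and uncalled under spike-in scaling), and V5 was not called (-0.17 ± 0.061). Cdkn2a, whose locus encodes Ink4a and Arf, gave 0.193 and 0.198 in the input, 0.348 and 0.2796 in IgG, 0.2898 and 0.281 in V5, and 0.404 and 0.306 in GFP; V5 and GFP overlap IgG and neither was called (-0.13 ± 0.15 and 0.17 ± 0.15).

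Under the percentile scaling used for the values here, none of the Cip/Kip inhibitors was called higher than IgG in either precipitate. Spike-in scaling called Cdkn1a (0.23), Cdkn1b (0.68) and Cdkn1c (0.40) higher in GFP, and none of them in V5. Cdkn1a gave 0.529 and 0.534 in the input, 0.578 and 0.597 in IgG, 0.457 and 0.457 in V5, and 0.507 and 0.487 in GFP. The 4 precipitate arrays lie below those of IgG and of the input, with differences from IgG of -0.36 ± 0.061 in V5 and -0.24 ± 0.061 in GFP (adjusted p = 0.00529 and 0.0115). Spike-in scaling gave 0.003 in V5, uncalled, and 0.23 in GFP, called as higher, and the GFP call was lost without GFP replicate 2 (-0.21). Cdkn1c gave 0.794 and 0.717 in the input, 0.70 and 0.823 in IgG, 0.608 and 0.635 in V5, and 0.717 and 0.729 in GFP. It was called lower in V5 (-0.29 ± 0.10, adjusted p = 0.0439; 0.076 under spike-in scaling), a call lost when any array but IgG replicate 1 was left out (-0.32 to -0.17), and not in GFP (-0.071 ± 0.10). Cdkn1b gave 0.5098 and 0.459 in the input, 0.373 and 0.323 in IgG, 0.307 and 0.337 in V5, and 0.399 and 0.403 in GFP. It was called in neither (-0.11 ± 0.10 and 0.21 ± 0.10), but its other probe was called lower in both, at -0.48 and -0.36, which spike-in scaling turned to -0.12 and 0.11, uncalled. The brighter probe was called higher in GFP under that scaling, at 0.68. Cdkn3, a phosphatase that acts on Cdk2, gave 2.07 and 2.27 in the input, 1.56 and 1.49 in IgG, 1.28 and 1.57 in V5, and 1.36 and 1.28 in GFP and was called in neither (-0.10 ± 0.11 and -0.21 ± 0.11).

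All E2f calls against IgG were in the same direction. Of the activators, E2f2 gave 1.602 and 1.61 in the input, 4.88 and 6.53 in IgG, 9.08 and 8.11 in V5, and 11.2 and 11.1 in GFP. Every group lies above the one before it in the order input, IgG, V5 and GFP, and E2f2 was higher than IgG by 0.61 ± 0.14 in V5 and 0.98 ± 0.14 in GFP (adjusted p = 0.0121 and 0.00102). E2f3 gave 2.32 and 2.24 in the input, 2.13 and 2.04 in IgG, 3.49 and 3.203 in V5, and 3.82 and 3.56 in GFP. Input and IgG lie close together and both precipitates above them, by 0.68 ± 0.077 in V5 and 0.82 ± 0.077 in GFP (adjusted p = 0.00188 and 0.000306). The E2f3 probes disagreed, with 0.31 and -0.058 in GFP for the dimmer ones. E2f1 gave 1.59 and 1.37 in the input, 4.21 and 4.67 in IgG, 3.82 and 4.25 in V5, and 3.88 and 4.13 in GFP. All IgG, V5 and GFP arrays lie above the input and within reach of each other, and E2f1 was not called against IgG (-0.14 ± 0.11 in V5 and -0.15 ± 0.11 in GFP). Its dimmer probe, printed in 10 copies with a coefficient of variation of 4.39% to 8.26%, was called higher in both, at 0.36 and 0.66. Spike-in scaling called the brighter E2f1 probe higher in GFP, at 0.32, and not in V5, at 0.23.

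Of the repressors, E2f5, which acts with pocket proteins, gave 3.25 and 3.54 in the input, 3.18 and 3.201 in IgG, 7.104 and 6.62 in V5, and 9.84 and 9.09 in GFP. Input and IgG are level, V5 lies above both and GFP above V5. E2f5 was 2.15-fold higher than IgG in V5 (1.10 ± 0.08, adjusted p = 0.000795) and 2.96-fold higher in GFP (1.57 ± 0.08, adjusted p = 8.23e-05), and its other probe gave 1.44 and 1.997. E2f6, a repressor that does not need pocket proteins, gave 4.18 and 4.02 in the input, 4.61 and 4.17 in IgG, 5.57 and 5.78 in V5, and 6.33 and 6.15 in GFP, higher than IgG by 0.37 ± 0.074 in V5 and 0.51 ± 0.074 in GFP (adjusted p = 0.00823 and 0.00118). E2f7, an atypical repressor, gave 0.758 and 0.758 in the input, 1.15 and 1.51 in IgG, 2.08 and 1.77 in V5, and 2.51 and 2.55 in GFP. It steps up over the groups and was higher than IgG by 0.54 ± 0.14 in V5 and 0.94 ± 0.14 in GFP (adjusted p = 0.0183 and 0.00129). The related E2f8 was dim, with 0.1002 and 0.105 in the input, 0.1803 and 0.177 in IgG, 0.244 and 0.216 in V5, and 0.297 and 0.3196 in GFP, and likewise higher by 0.36 ± 0.084 in V5 and 0.79 ± 0.084 in GFP (adjusted p = 0.0128 and 0.000437). Without V5 replicate 1 the V5 calls of E2f2 (0.52), E2f7 (0.43) and E2f8 (0.27) were lost.

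These calls against IgG hold unevenly. Of the 27 in V5, 16 passed whichever array was left out, and of the 33 in GFP, 28 did. Without both arrays of conflicting description, V5 rests on its replicate 2 alone. Only Cdk2 (0.95), Cdk8 (1.14) and E2f5 (1.05) then kept their V5 calls, and most V5 calls of all genes were lost too. With normexp background correction 0 of the 47 were called in V5 against IgG (12 at an unadjusted p under 0.05) and 12 in GFP, 10 higher and 2 lower. Of all genes 0 were then called in V5 and 18.4% in GFP.

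The 2 antibodies against the same fusion differed for 9 of the 47 genes, beside 13.9% of all genes (6.76% higher and 7.17% lower in V5). All 9 were lower in V5 than in GFP: Ccna2 (-0.50 ± 0.065), Ccnb1 (-0.31 ± 0.071), Ccnd1 (-0.59 ± 0.11), Ccni (-0.55 ± 0.12), Ccnj (-0.64 ± 0.14), Cdk2 (-0.71 ± 0.092), Cdk8 (-0.53 ± 0.08), E2f5 (-0.46 ± 0.08) and E2f8 (-0.42 ± 0.084), with adjusted p from 0.0263 to 0.0418. The V5 and GFP arrays lie on the same slide. The median over the 47 genes was -0.14 beside 0.089 over all genes. The V5 and GFP arrays of the 9 do not overlap, but the 9 were picked by that difference, so this adds no support. Arrays of uncalled genes such as Ccna1, Ccnb2 and Ccnd2 do not overlap either. None of the 9 kept its call whichever array was left out, and the count ran from 0 to 17. Where a call was lost the difference stayed below 0, from -0.83 to -0.24 over the 9 genes, with adjusted p from 0.0762 to 0.172. The count of calls was 0, with 20 genes at an unadjusted p under 0.05, both with the replicate number as a block and with dim probes kept. Of all genes 0.0114% and 0.0143% were called in these settings.

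The mock itself differed from the input, within slide 1. In IgG 22 of the 47 genes were called higher than in the input and 11 lower, beside 73.2% of all genes, 43.9% higher and 29.3% lower. The median of the 47 was 0.22, as it was over all genes. Spike-in scaling turned this split to 7 higher and 30 lower, with the median of all genes at -0.57, so the sign of many differences here changed with the scaling. Of all genes 75.8% were then called, 18.1% of these calls higher. E2f genes had 4 of 7 higher and 0 lower: E2f2 (1.81 ± 0.14) and E2f1 (1.58 ± 0.11) by the most, then E2f7 (0.80 ± 0.14) and E2f8 (0.80 ± 0.084). All 4 Ink4 inhibitors were called higher, from 0.22 for Cdkn2b to 1.10 for Cdkn2c, though the call of Cdkn2b was lost without input replicate 1 (0.21) or input replicate 2 (0.24), and spike-in scaling gave -0.11 for Cdkn2a, -0.57 for Cdkn2b and -0.005 for Cdkn2d. Ccne1 (1.35 ± 0.073), Cdk3 (1.44 ± 0.13), Cdk10 (1.21 ± 0.11), Ccnd1 (1.08 ± 0.11) and Ccnd3 (0.99 ± 0.11) were higher in the mock too. On the other side stood Ccne2 (-2.47 ± 0.24), Cdk7 (-1.51 ± 0.09), Ccnb1 (-1.50 ± 0.071), Ccnl1 (-1.36 ± 0.087), Ccnh (-1.30 ± 0.08) and Cdk8 (-1.09 ± 0.08), all lower in the mock under either scaling. Under spike-in scaling the differences of E2f7 (0.010), E2f8 (0.014) and Ccnd3 (0.20) were uncalled. Among the genes lower in the mock, the subunits of the Cdk-activating kinase stayed low in the precipitates: Cdk7 was 2.41 and 2.56 in the input, 0.936 and 0.807 in IgG, 0.939 and 0.895 in V5, and 0.819 and 0.784 in GFP, and Ccnh 10.7 and 10.7 in the input, 4.65 and 4.08 in IgG, 4.89 and 4.72 in V5, and 4.55 and 4.47 in GFP. In both genes the input arrays lie far above all other arrays, which lie close together.

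Against the input, 25 of the 47 genes were called higher and 12 lower in V5, beside 73.2% of all genes (37.7% higher and 35.5% lower), and 28 higher and 9 lower in GFP, beside 75.2% (36.2% higher and 39.1% lower). All 7 measured E2f genes were called higher in each, from 0.47 for E2f6 to 2.42 for E2f2 in V5 and from 0.61 to 2.80 in GFP. E2f2 was 6.95-fold and Ccnd1 6.47-fold higher in GFP than in the input (adjusted p = 1.02e-05 and 6.45e-06), the highest values of the 47. Ccne2, Ccnb1 and Cdk8, all higher than IgG in both precipitates, stood differently here. Ccnb1 was called lower than the input (-1.07 ± 0.071 in V5 and -0.76 ± 0.071 in GFP), whereas its dimmer probes were uncalled in V5 and called higher in GFP, at 0.64 and 0.53. Ccne2 was -0.88 ± 0.24 in V5, a call lost without input replicate 1 (-0.89), input replicate 2 (-0.87) or V5 replicate 2 (-0.79), and -0.46 ± 0.24 in GFP, uncalled (adjusted p = 0.123). Cdk8 was 0.067 ± 0.08 in V5, uncalled (-0.36 and called lower under spike-in scaling), and 0.60 ± 0.08 in GFP, called as higher, and its dimmer probe was called higher than the input in both, at 0.78 and 1.05. E2f5 and Cdk2, by contrast, exceeded input and mock alike, E2f5 by 1.01 ± 0.08 and 1.48 ± 0.08 and Cdk2 by 0.65 ± 0.092 and 1.35 ± 0.092 against the input in V5 and GFP. These comparisons span the 2 slides, and with spike-in scaling the splits were 14 higher and 18 lower in V5 and 23 higher and 16 lower in GFP. Of all genes 74.8% and 76.1% were then called, 26.8% and 31.1% of these calls higher. In V5 the calls of E2f3 (0.13), E2f6 (0.046) and Cdk2 (0.22) were lost under spike-in scaling.

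**Figure D3:**
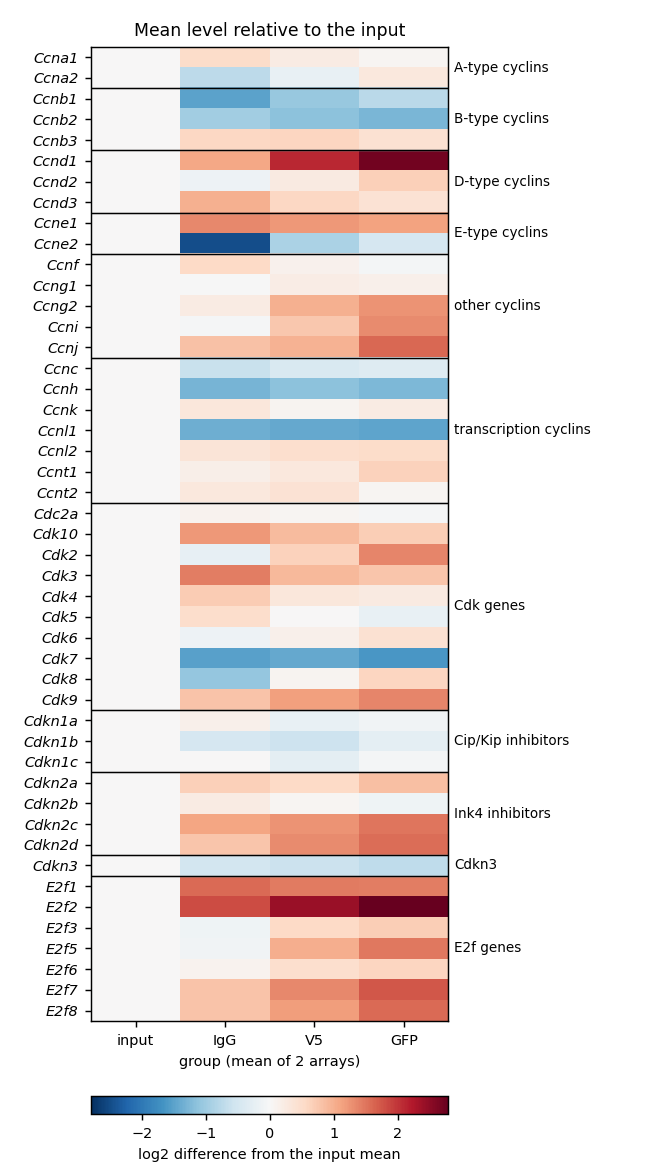
Mean log2 level of each of the 47 measured genes in IgG, V5 and GFP (columns, mean of 2 arrays) as a difference from the input mean, with genes grouped by class; red is above the input and blue below, on the linear log2 scale of the bar. E2f2 and Ccnd1 are the darkest red in the GFP column (2.80 and 2.69) and Ccne2 the darkest blue in the IgG column (-2.47).

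For 23 of the genes more than 1 probe was kept. Tested probe by probe, 53.4% of all probes were called in V5 against IgG and 70.4% in GFP against IgG. In V5 against IgG every probe of a gene was called higher for 4 genes and every probe lower for 1, and in GFP against IgG for 8 and 2. No gene had probes called in opposite directions in V5, and in GFP only Ccni did. The probes of a gene spanned a median of 0.40 in V5 and 0.59 in GFP on the log2 scale, and more than 0.5 for 10 and 13 of the genes. The probes of Ccne2, Ccnd2, Cdkn2c and Cdk10 lay closest together among the called genes, and those of Ccnb1, Ccnc, Cdk8, E2f1 and E2f3 were spread as given above. Against the input Ccni had probes called both ways in V5, where 72.4% of all probes were called, Ccni and Ccnb1 in GFP, where 74.4% were, and Cdk8 in IgG (-1.09 and 0.41), where 73.2% were.

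**Figure D4:**
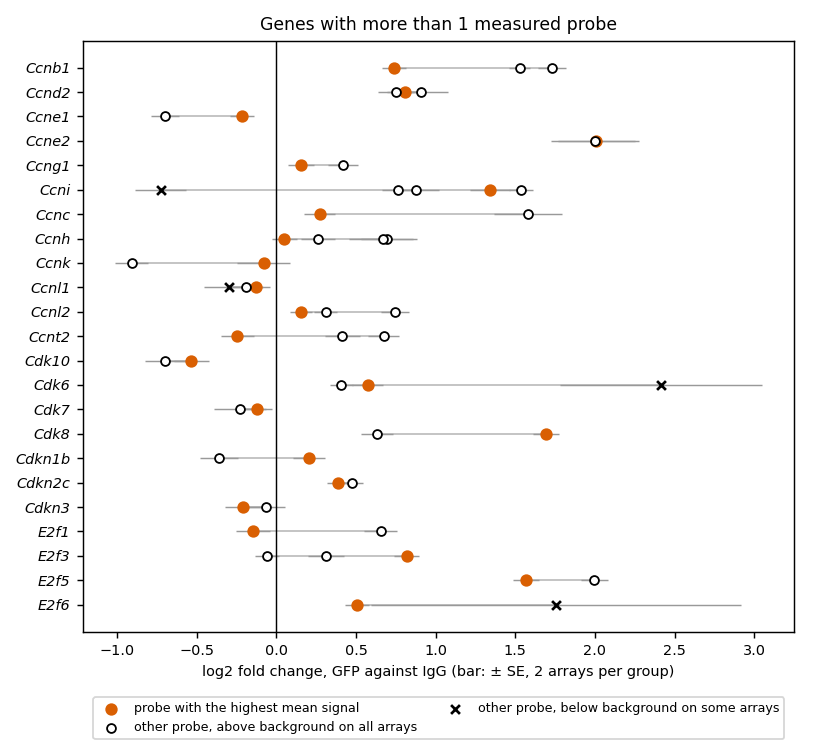
Difference between GFP and IgG as log2 fold change (points) with SE (bars) for each kept probe of the 23 genes that have more than 1; the filled orange point is the brightest probe, open points are other probes above background on all arrays, and crosses are probes below background on some arrays. The 2 probes of Ccne2 coincide at 1.999 and 2.008, while the 2 probes of Ccnc lie at 0.27 and 1.58.

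Other genes of the pathway moved both ways. Of the pocket proteins and the E2f partners 3 of 5 were called higher and 0 lower in V5, and 4 higher and 1 lower in GFP, against IgG. Of all genes 16.7% were higher and 40.3% lower in V5 and 21.6% higher and 52.1% lower in GFP, the background for this count and those of the next 3 lists. Tfdp1, the DNA-binding partner of most E2f factors, was higher by 1.07 ± 0.069 and 1.51 ± 0.069 in V5 and GFP, Rbl1 by 0.72 ± 0.16 and 0.98 ± 0.16, and Rb1 by 0.53 ± 0.13 and 0.68 ± 0.13, while Rbl2 was -0.078 and uncalled in V5 and -0.37 and called in GFP (0.097 and uncalled under spike-in scaling). Of 8 enzymes and adaptors that act on Cdks, 3 were higher and 1 lower in V5 and 5 higher and 1 lower in GFP. The Cdk-binding subunits Cks1b (1.26 in V5 and 1.65 in GFP) and Cks2 (1.26 and 1.65) and the inhibitory kinase Wee1 (0.72 and 1.38) were higher, and its relative Pkmyt1 lower (-0.44 and -0.64, but -0.071 and -0.17, uncalled, under spike-in scaling). Of 21 genes of the ubiquitin ligases that destroy cyclins and inhibitors, 6 were higher and 5 lower in V5 and 7 higher and 9 lower in GFP; the SCF ligase parts Skp1a (1.22 and 1.81), Rbx1 (0.97 and 1.49) and Skp2 (0.67 and 1.13) were among the higher and Anapc7 of the anaphase-promoting complex (-0.51 and -0.87) among the lower. Under spike-in scaling Anapc7 kept its call in GFP (-0.40) and lost it in V5 (-0.14). Of 16 replication genes known as E2f targets, 4 were higher and 2 lower in V5 and 6 higher and 6 lower in GFP, with Pcna (0.59 and 0.83) and Mcm4 (0.45 and 0.65) higher, Rrm1 lower (-0.26 and -0.57), and Tyms -0.12, uncalled, in V5 and -0.53, called, in GFP. Spike-in scaling gave 0.11 and -0.096 for Rrm1, both uncalled, and for Tyms 0.25, called as higher, in V5 and -0.054, uncalled, in GFP. Over the 4 lists in that order it gave 4, 7, 12 and 12 higher and 0 lower in V5, and 4, 7, 13 and 10 higher and 0, 0, 2 and 0 lower in GFP. Of all genes 40.8% and 51.5% were then called, 87.2% and 75.6% of these calls higher. Scaled on the 75th percentile, the medians of the 16 replication genes were 0.056 and 0.072 beside -0.21 and -0.33 over all genes.

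The labels call the material germ cells, but the input also held RNA of other testis cells: all 10 measured Sertoli markers, 5 of 5 Leydig, 5 of 5 myoid, 5 of 5 leukocyte, 5 of 5 endothelial and 3 of 3 erythroid markers lay above background on both input arrays, as did 7 of 7 measured germ cell markers, and none of these was at 0. The summed relative signal of the Sertoli markers was 388 to 399 in the input, 283 to 288 in IgG, 224 to 235 in V5 and 204 to 207 in GFP, and 8 of the 10 were called lower than IgG in V5 and 10 of 10 in GFP, beside 40.3% and 52.1% of all genes. Under spike-in scaling 1 of the 10 was called lower in V5, with 1 higher, and 2 lower in GFP. Myoid markers summed to 74.6 to 76.9 in the input, 32.2 to 37.4 in IgG, 22.5 to 25 in V5 and 18.8 to 19.7 in GFP. Erythroid markers likewise summed to less in IgG (40.5 to 44.2) than in the input (56 to 57.1), the leukocyte sums of IgG (5.12 to 6.18) enclosed those of the input (5.28 to 5.39), and the Leydig (26.5 to 28.6 beside 24.7 to 25.3) and endothelial sums (1.72 to 1.84 beside 1.31 to 1.40) were higher in IgG. In V5 and GFP the sums of these 4 lists all lay below those of IgG. Under spike-in scaling 0 markers of these 4 lists or of the myoid list were called lower in V5. In GFP 3 of 5 myoid, 1 of 5 Leydig, 2 of 5 leukocyte, 1 of 5 endothelial and 1 of 3 erythroid markers were then called lower. The sum of the germ cell markers was 278 to 280 in the input, 234 to 272 in IgG, 233 to 247 in V5 and 240 to 250 in GFP, with 5 of 7 called higher and 1 lower than IgG in each precipitate (5 higher and 0 lower under spike-in scaling). Against the input 5 of the 7 were called lower and 1 higher in IgG and in V5, and 4 lower and 1 higher in GFP. Of all genes 29.3%, 35.5% and 39.1% were called lower than the input in these groups. The median differences of the 7 from the input were -1.61, -1.095 and -0.58. The part of these shifts in the differences of the cell cycle genes was not tested. All 4 groups come from the same kind of material, so the sums describe the RNA in each fraction and do not count cells.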

How the data were processed

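Cy3-labelled RNA of 8 samples, 4 groups of 2, was hybridised to one-colour mouse arrays. Per the file headers, the deposited intensities come from Agilent Feature Extraction 9.1.3.1, with background subtracted and arrays not scaled to each other. Processed signals were put on the log2 scale, the 75th percentile of the 43379 non-control spots of an array was subtracted, outlier spots were dropped, and the copies of each of 41174 probes were averaged. A probe was kept if some group had it well above background on both arrays (25629 probes), and the brightest kept probe stood for each of 17593 gene names. The genes described have 139 spots an array, 0 of them flagged as outliers, and 46 of the 48 names match RefSeq. Group means over all 8 arrays were fitted with limma 3.58.1 in R 4.3.3 (degrees of freedom: 4 residual, 2.41 prior). Each of 6 comparisons was tested two-sided, and p-values were adjusted by Benjamini-Hochberg across every measured gene and called at 0.05. The procedure was tested on simulated data. The number of arrays limits the precision. A deposited table of the authors' group means, in which IgG is not a condition, was not used here.

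The genes, classes, pathway lists and markers were chosen with earlier results of these data known. Values on every array are given for the A-, B-, D- and E-type cyclins, Cdc2a, Cdk2, Cdk4, Cdk6, the inhibitors and the E2f genes, and for the 3 genes of each other class with the smallest p against IgG; up to 4 genes of each pathway list are named by smallest p. Ccnh and Cdk7 were added after their values were seen. Alternatives were other scalings (spike-in probes, median, quantile), normexp or local background subtraction (offset 50), other probe filters, the mean of a gene's probes, the compared groups alone, a replicate block, and leaving out each array or both arrays of conflicting description.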

Additional observations from a re-analysis of the deposited data

How the results depend on the processing

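With normexp background correction the calls among the 47 genes went from 27 to 0 in V5 against IgG, from 33 to 12 in GFP against IgG, from 9 to 0 in V5 against GFP, from 33 to 20 in IgG against input, and from 37 to 20 and 21 in V5 and GFP against input; at an unadjusted p under 0.05 limma gave 12 in V5 against IgG and 5 in V5 against GFP. Over all genes normexp left 0 calls in V5 against IgG, with 3702 at an unadjusted p under 0.05. It called 18.4% of all genes in GFP against IgG and 0 in V5 against GFP. Against the input it called 35.7% in IgG, 29.9% in V5 and 32.5% in GFP. Without both arrays of conflicting description 3 genes were called in V5 against IgG (19 unadjusted) and 0 in V5 against GFP (14 unadjusted). V5 against GFP had 0 calls with dim probes kept (20 unadjusted) and 14 when only the groups compared were fitted, beside 0.0143% and 24.9% of all genes. Leaving out each array in turn gave 19 to 31 calls in V5 against IgG, 29 to 34 in GFP against IgG, 0 to 17 in V5 against GFP (17 without either IgG array), 31 to 35 in IgG against input, 29 to 39 in V5 against input and 32 to 39 in GFP against input. The cause was not tested.

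Samples share only a replicate number: deviations of same-numbered arrays from their group means correlated between -0.076 and 0.107 over the 6 pairs of groups. The replicate block gave 25 calls in V5 and 33 in GFP against IgG, 34 in IgG, 36 in V5 and 35 in GFP against input, and 0 in V5 against GFP (20 unadjusted).

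Spike-in scaling turned these values. In V5 against IgG they became 0.077 for Ccna1, 0.338 for Cdc2a, 0.028 for Cdk10, 0.003 for Cdkn1a and 0.076 for Cdkn1c. Those of Ccnb2 (0.185), Ccne1 (0.227), Ccnk (0.121), Ccnl1 (0.28) and Cdkn1b (0.255) turned too. So did those of Cdkn2a (0.236), Cdkn2b (0.199), Cdkn3 (0.261) and E2f1 (0.226). In GFP against IgG they became 0.011 for Ccna1, 0.18 for Ccnb2, 0.307 for Ccnb3, 0.255 for Ccne1, 0.344 for Ccnl1, 0.354 for Cdc2a, 0.023 for Cdk4, 0.353 for Cdk7, 0.231 for Cdkn1a, 0.401 for Cdkn1c, 0.14 for Cdkn2b and 0.324 for E2f1. Ccnk (0.391), Ccnt2 (0.227) and Cdkn3 (0.265) turned there too. In V5 against input Cdk8 became -0.357, and further values of V5 and GFP against input that turned are not listed. In IgG against input they became -0.273 for Ccna1, -0.202 for Ccnb3, -0.232 for Ccnf, -0.565 for Ccng2, -0.477 for Ccnk, -0.426 for Ccnl2, -0.623 for Ccnt1, -0.494 for Ccnt2, -0.701 for Cdc2a, -0.079 for Cdk4, -0.303 for Cdk5, -0.645 for Cdkn1a, -0.78 for Cdkn1c, -0.112 for Cdkn2a, -0.569 for Cdkn2b, -0.005 for Cdkn2d and -0.691 for E2f6. Median scaling turned Ccne1 (0.075) and Cdkn1a (0.051) in GFP against IgG. The mean of a gene's probes turned Ccnt2 (0.281) and E2f1 (0.254) in GFP against IgG, Ccnt2 (-0.048) in IgG against input and Ccnb1 (0.136) in GFP against input. Spike-in scaling uses 7 of 10 spike-in probes, and the V5, GFP and IgG arrays then had 87.2% of all calls higher in V5 against IgG and 75.6% in GFP against IgG, in place of 29.3% in each. Median scaling left IgG against input at 23 higher and 11 lower, and V5 and GFP against input at 34 and 36 higher and 6 lower in each. Of all genes it called 74.1%, 74.0% and 75.2% in these comparisons, with 62.8%, 68.9% and 65.9% of the calls higher. Spike-in scaling of the pathway lists, added after seeing the data, turned Rrm1 to 0.107 and Tyms to 0.246 in V5 against IgG and Rbl2 to 0.097 in GFP against IgG. The subtraction of local background, an alternative chosen after seeing the data, gave 29 calls in V5 and 34 in GFP against IgG, 11 in V5 against GFP, and 34 in IgG, 37 in V5 and 38 in GFP against input.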
